A study of Drosophila melanogaster with 15 samples.

Results

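Embryos homozygous for a mutation of pri were compared with wild-type (wt) embryos of Drosophila melanogaster on 10 arrays, those of the 5 samples labelled pri -/- and the 5 labelled wt. They are 10 of the 15 arrays of the study, which also profiled 5 samples labelled svb -/-. The mutant samples carried the allele pri1, and the svb samples the allele svbR9. Both stocks were kept over balancer chromosomes with green fluorescent protein, and mutant embryos were picked by hand with the help of these balancers. The labels describe the wt embryos as genotyped too, and do not name their strain. Every sample pooled 200 dechorionated whole embryos aged 13 to 15 h after egg laying, so that all tissues contributed RNA. The sex of the embryos is not given, and whether it was the same in the svb samples as in the others is not known. In such bulk samples, fewer cells of a type and less RNA per cell cannot be told apart. Each sample was hybridised to 1 Affymetrix Drosophila Genome 2.0 array, and the signal is the linear brightness of a probe set, which stands for 1 or more transcripts.

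The gene pri, also known as tarsal-less or mille-pattes, gives an RNA without a long reading frame that encodes several very short, related peptides. These peptides lead to the removal of the N-terminal part of Shavenbaby (Svb), a zinc finger transcription factor, and thereby turn it from a repressor into an activator. In the embryonic epidermis the activator form switches on genes for trichomes, cuticular hairs built around bundled actin, and embryos without pri or svb lack them. The gene pri is also needed for the tracheal tubes, and in leg and larval development it has been tied to the timing of ecdysone signalling.

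Of 18952 probe sets, 183 were controls of the array, and 8502 of the rest had a mean log2 signal of at least 5 (a signal of 32) in wt or in pri embryos and were tested. Gene names could be given to 133 of the tested probe sets, 1 per gene. They come from the authors' table of genes selected on these same arrays for lower signals in both mutants. The study also required them to be more than 2-fold further down in pri than in svb. Their direction in pri embryos, and a fall of about 2-fold or more, were fixed by that choice and are a description. The probe sets of pri and svb were not identified by name, and the labels had no check against the targeted genes. Of the epidermal markers ImpE1, m, dyl and Tb could be followed, and of those for other cell types only PH4alphaSG1 (salivary gland) and CG17562 (oenocytes). The rest of the cell type markers were not analysed here.

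Among the 10 named genes with the largest measured falls were ZP domain proteins, proteases, an enzyme of isoprenoid synthesis and genes without a role given here. Miniature (m), one of the zona pellucida (ZP) domain proteins, links the cuticle to the apical membrane and had signals of 1161, 1808, 1234, 1299 and 1297 on the wt arrays, in the order of replicates 1 to 5, and 79.01, 91.7, 90.5, 73.01 and 85.4 on the pri arrays. The highest pri value lay more than 10-fold below the lowest wt value. The fitted fall of m was 16.1-fold, with an SE of 0.15 on the log2 scale (limma adjusted p = 4.01e-10). Its relative morpheyus (mey) went from 1767, 2283, 2023, 2028 and 1824 in wt to 134, 172, 170.0, 129.5 and 171 in pri. This is a 12.8-fold fall (log2 -3.68 ± 0.13; limma adjusted p = 4.01e-10), again with no overlap.

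CG42331 followed with a 9.78-fold fall, from 286, 434, 526, 198 and 391 in wt to 31.9, 29.7, 32.7, 39.3 and 46.5 in pri (limma adjusted p = 1.93e-07). It varied more between wt arrays than m or mey did, and 2 of its 5 pri values were under 32. The signals of CG14756 were 2789, 2936, 2515, 2998 and 2646 in wt and 306, 357, 396, 289 and 366 in pri, 8.14-fold lower (limma adjusted p = 5.77e-10). Here the spread within each genotype was small beside the difference. Wurst (wus), a membrane protein that recruits clathrin for endocytosis in tracheal tubes, had 431, 417, 381, 444 and 371 in wt and 39.9, 52.7, 59.2, 42.6 and 62.8 in pri. It was 8.05-fold lower (limma adjusted p = 9.62e-09), and its 2 groups also lay far apart.

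**Figure D1:**
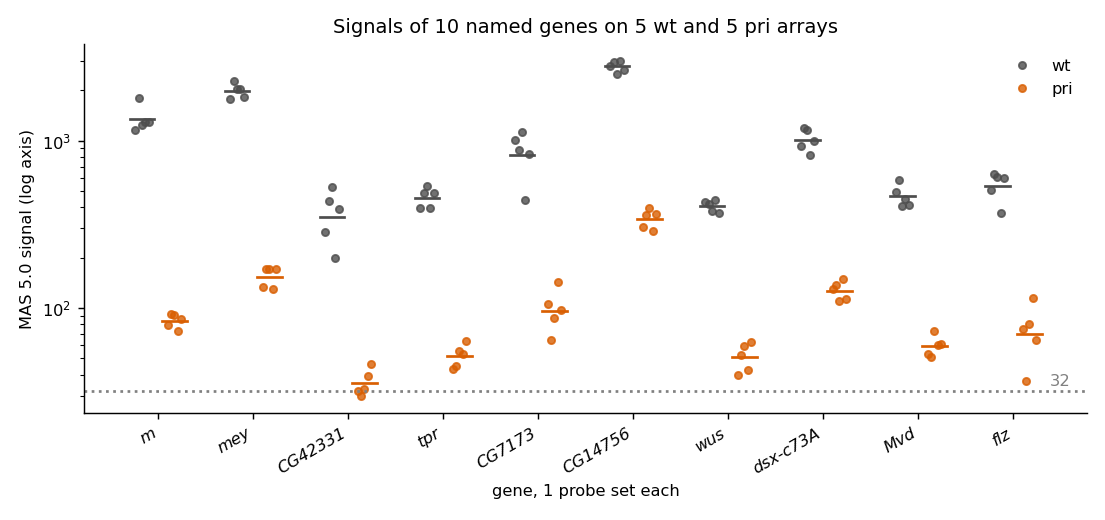
MAS 5.0 signal (log axis) of the 10 named genes with the largest falls among those with both means at or above 32 (dotted line), on the 5 wt and 5 pri arrays. Points are arrays and bars are geometric means; for each of the 10 genes all pri points lie below all wt points.

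Across the array, the call rule used here (limma, Benjamini-Hochberg adjusted p under 0.05 over all 8502 tested probe sets) took 3842 probe sets, or 45.2%. Of these, 2063 (24.3%) were lower and 1779 (20.9%) higher in pri embryos. The named genes stand within this wide change: 132 of the 133 were called lower and 0 higher, and the study's choice of them fixed that share. When each array was instead scaled on its hybridisation controls, which are described below, 371 probe sets were lower and 4734 higher, and the median log2 fold change of all tested probe sets moved from -0.04 to 0.62. Under that scaling all 133 named genes still had a negative log2 fold change and 115 were called lower. Directions below hold for the deposited scaling, and the count under the other one is given for each list.

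The wt and pri groups of 1205 tested probe sets (14.2%) did not overlap with pri lower, and those of 1270 (14.9%) did not overlap with pri higher. Among the named genes 123 had no overlap and 10 did. The overlapping genes were Hr3, Fib, crok, Obp99c, alpha-PheRS, mRpL46, mRpL47, CG13585, CG30423 and CG6180. In all 10 the lowest wt array was replicate 3. Without it 0 named genes overlapped, and 19.0% of all tested probe sets were then lower in pri without overlap. The median fall of the 133 genes was 3.24-fold (3.21-fold with 10 genes at their lower bounds), against a median log2 fold change of -0.04 for all tested probe sets. For the 123 genes with both means at or above the level, the signal that remained in pri embryos ran from 6.17% of wt for m to 49.2% for Fib. The upper end of this range follows from the study's choice of genes.

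With group means under the level set at the level, so that their folds are bounds, 1533 probe sets were called lower by less than 2-fold, of which 1 was named, the fibrillarin gene Fib. From 2-fold to under 4-fold the named genes made up 91 of 463 (19.7%), from 4-fold to under 8-fold 33 of 53 (62.3%), and from 8-fold 7 of 14 (50.0%). Falls of at least 2-fold were called in this way for 6.23% of all tested probe sets, and of at least 4-fold for 0.788%. The study chose genes more than 2-fold further down in pri than in svb. The share of named genes in each range thus follows in part from that choice and is a description. With these bounds named genes were 14 of the 25 largest falls, 58 of the largest 100 and 132 of the largest 500. By fitted fold they were 7 of the largest 25, 42 of the largest 100 and 128 of the largest 500.

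Known targets of Svb, 24 genes listed from the study's text and general knowledge, had 16 named members, and all 16 were lower in pri. Their median fall was 6.39-fold, or 5.86-fold with CG14395 and sha at their bounds, while the 117 other named genes had a median of 2.92-fold. The study's own list of known targets was longer, and most of its members were not among the genes it selected on these arrays. The median of 6.39-fold thus describes only known targets that had passed the study's choice. Those 117 are not all genes independent of Svb. They include genes that the study went on to find reduced in svb mutants by in situ hybridisation, such as CG7173, CG9184 and Tb. For other named genes that it examined in svb mutants, the study reports no such reduction. Among these are CG15370, tpr, Mvd, wus, CG17562, qua and vri. All 16 also passed with hybridisation control scaling, at a median of 4.05-fold. The signals of CG14395 were 105, 109.9, 135, 158 and 119.9 in wt and 2.55, 2.41, 5.53, 5.23 and 3.39 in pri. Every pri value was under 6, so that only a bound of 3.88-fold can be given for the fall (limma adjusted p = 1.39e-08). The cuticle-linked target dsx-c73A went from 925, 1194, 1149, 824 and 989.8 to 129.5, 138, 109.5, 149 and 113, a fall of 7.94-fold (limma adjusted p = 7.28e-09) with a wide gap between the genotypes. The smallest fall on the list was that of PH4alphaEFB, a prolyl hydroxylase that modifies collagens, with 836, 1004, 839, 1241 and 931 in wt and 319, 508, 407, 292 and 440.2 in pri. It still separated the genotypes at 2.49-fold (limma adjusted p = 3.56e-05).

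ZP domain proteins span the apical membrane of epidermal cells and shape the matrix over each trichome. The list of 15 had 6 named members, m, mey, nyo, dyl, neo and tyn, all also on the target list, and each was lower in pri without overlap. Nyobe (nyo) had 716, 1086, 1103, 599 and 849 in wt and 136, 128, 114, 149 and 139 in pri, and was 6.39-fold lower (limma adjusted p = 9.65e-08). Dusky-like (dyl), which is needed for the shape of hairs and for chitin deposition in bristles, went from 1423, 1846, 2041, 1278 and 1629 to 218, 174, 231, 383 and 315 and was 6.38-fold lower (limma adjusted p = 3.27e-07). Trynity (tyn) showed the smallest fall of the 6, 4.597-fold, from 1948, 1757, 1956, 963 and 2191 to 517, 242, 376, 558 and 261 (limma adjusted p = 1.82e-05). In wt the array of replicate 4 was the lowest for 4 of the 6 genes, tyn among them. All 6 passed with hybridisation control scaling.

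Genes of the actin cytoskeleton and of hair growth had 5 named members out of 20 listed, all 5 lower without overlap and all 5 also called with hybridisation control scaling. Shavenoid (sha) is needed for the actin protrusions of trichomes. Its signals were 136, 95.99, 124, 116 and 131 in wt and 8.14, 7.86, 6.17, 9.18 and 8.22 in pri, and no pri array came above 10. The fall was at least 3.74-fold (limma adjusted p = 4.37e-09). Multiple wing hairs (mwh), a formin-related protein that limits where actin assembles, fell 3.901-fold, from 119.7, 119, 183, 93.7 and 150.3 to 31.03, 33.6, 22.7, 43.4 and 39.7 (limma adjusted p = 7.04e-06). Forked (f), a bundling protein of bristle and hair actin, fell 3.88-fold, from 236, 285, 284, 192 and 333 to 69.3, 47.3, 61.7, 97.9 and 69.97 (limma adjusted p = 4.42e-06). These 2 genes thus fell to a similar fraction of wt, 25.6% and 26.04%. The filamin gene cher kept 40.5% of its wt signal, with 1224, 1572, 1249, 1588 and 1428 in wt and 468, 562, 703, 524 and 602 in pri. Quail (qua), a villin-like protein, had the smallest fall of the list at 2.31-fold, from 368, 374, 402, 274 and 396 to 168, 133, 142, 181 and 158 (limma adjusted p = 2.33e-05).

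Secreted serine proteases and their relatives act in cuticle, clotting and immune cascades. The list of 15, which also holds protease inhibitors, had 8 named members, and all 8 were lower in pri (median 4.96-fold), without overlap and also with hybridisation control scaling. The largest falls were those of tpr, CG7173 and flz. On the wt arrays tpr had 396, 484, 538, 395 and 485 and on the pri arrays 43.4, 45.05, 55, 52.7 and 63.4, 8.87-fold lower (limma adjusted p = 6.49e-09). CG7173 had 1002, 879.8, 1129, 442 and 828 in wt and 106, 64.04, 87.6, 143 and 97.05 in pri, 8.49-fold lower (limma adjusted p = 6.81e-07). As for tyn, wt replicate 4 stood low. Filzig (flz), a protease needed for the lining of the tracheal airways, went from 505, 628, 609, 369 and 597 to 75.1, 36.5, 79.9, 115 and 64.2, 7.66-fold lower (limma adjusted p = 1.17e-06). Its pri arrays spread over a wider range than those of tpr. CG1632 fell 5.33-fold, from 287, 368, 328, 368 and 330.4 to 49.5, 65.5, 62.1, 60.7 and 80.5 (limma adjusted p = 6.15e-08). The smallest fall of the list was 2.75-fold for CG4678, from 99.8, 134, 150.3, 104 and 109 to 33.5, 38.2, 46.3, 46 and 52.9 (limma adjusted p = 1.53e-05). The study describes CG4678 as a metalloproteinase, so it is not what the list's name says.

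Genes of cuticle proteins, tanning, pigment and prolyl hydroxylases had 8 named members of 19, all lower in pri (median 2.81-fold), and 7 of them with hybridisation control scaling, all but kar. CG12009 went from 1279, 1106, 1674, 505 and 1548 to 299.5, 105, 201, 308 and 143, 5.82-fold lower (limma adjusted p = 5.46e-05), and wt replicate 4 was again the lowest of its genotype. Tubby (Tb), a cuticle protein of the Tweedle family, had 275, 57.2, 67.5, 154 and 174 in wt and 21.9, 27.2, 18.98, 45.7 and 42.96 in pri. The wt arrays spread widely, yet the lowest was above the highest pri array, and Tb was at least 3.85-fold lower (limma adjusted p = 0.000929). Cyp301a1, a cytochrome P450 that takes part in cuticle formation in adult flies, fell 2.895-fold, from 305, 471, 516, 369 and 397 to 130.3, 119.8, 125, 155 and 177 (limma adjusted p = 9.87e-06). Karmoisin (kar), a transporter known from eye pigment, showed the smallest fall at 2.29-fold, from 337, 299, 242, 533 and 355 to 116, 141, 153, 151 and 196 (limma adjusted p = 0.000369). The salivary gland gene PH4alphaSG1 had mean signals of 207 ± 36.1 (wt) and 82.03 ± 10.4 (pri; SD, n = 5), 2.504-fold lower, and it is the only one of its list of cell markers that could be read.

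Planar polarity, cell surface and O-mannosylation genes had 7 named members of 14, all lower in pri without overlap (median 3.05-fold), and 6 of them with hybridisation control scaling, all but pk. Rotated abdomen (rt), a protein O-mannosyltransferase, fell 3.94-fold, from 217, 315, 313, 281 and 257 in wt to 50.02, 69.9, 64.4, 76.1 and 95.2 in pri (limma adjusted p = 1.50e-06). Its partner enzyme twisted (tw) had a fall of 2.62-fold. Both enzymes of O-mannosylation were thus lower. Pawn (pwn), known from defects of bristles and hairs, went from 93.5, 108, 157, 112 and 130.3 to 28.3, 34.8, 31.8, 42.98 and 41.4, 3.34-fold lower (limma adjusted p = 4.23e-06). Furrowed (fw), a selectin-like adhesion protein of planar polarity, fell 3.26-fold, from 509, 687, 624, 703 and 533 to 169, 193, 189.9, 179 and 200.1 (limma adjusted p = 4.48e-07). Prickle (pk), a core protein of planar polarity, had the smallest fall, 2.18-fold, from 247, 370.3, 287, 355 and 273 to 122, 162, 137, 125 and 150.5 (limma adjusted p = 5.61e-05).

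Membrane traffic and septate junction genes had 4 named members of 17, and all 4 were lower in pri (median 2.75-fold), 3 of them with hybridisation control scaling. Besides wus, Rab23, a small GTPase tied to the polarity of hairs, fell 3.05-fold, from 309.7, 262, 393, 168 and 302 to 107, 91.7, 75.5, 102 and 81.95 (limma adjusted p = 3.06e-05). Crooked (crok), which is needed to bring septate junction proteins to the membrane, fell 2.48-fold, from 1294, 1120, 649.7, 1475 and 1048 to 346, 492, 699, 289.5 and 454 (limma adjusted p = 0.000773), although pri replicate 3 was above wt replicate 3. Past1, an endocytic recycling protein, fell 2.13-fold, from 411, 391, 337, 689.5 and 477 to 150.3, 265, 245, 174 and 239 (limma adjusted p = 0.000969), and it is the one that lost its call with the other scaling.

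Ecdysone, the moulting hormone of insects, controls a cascade of nuclear receptors and effector genes. The list of 16 had 3 named members, of which 2 were lower in pri, and both also with hybridisation control scaling. ImpE1, an ecdysone-induced membrane protein of the epidermis and a known Svb target, went from 1281, 1006, 1036, 565 and 1259 to 222, 69.1, 145, 237 and 87.8 (7.28-fold lower, limma adjusted p = 1.39e-05). Vrille (vri), a bZIP transcription factor of hair growth and the circadian clock, went from 367, 334, 418, 624 and 323 to 137, 157, 105, 113 and 118 (3.21-fold lower, limma adjusted p = 1.06e-05). Neither gene had overlapping groups. The nuclear receptor Hr3 was the only named gene that did not pass. Its signals were 168, 104, 32.01, 149 and 267 in wt and 101, 29.1, 65.5, 65.5 and 26.1 in pri, a log2 fold change of -1.22 ± 0.50 (SE; limma adjusted p = 0.0625). The genotypes overlapped on both sides, with wt replicate 3 lowest in wt and pri replicate 1 highest in pri. Without wt replicate 3 the adjusted p was 0.00352, and without pri replicate 1 it was 0.0376.

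Enzymes of lipid, sterol and small-molecule metabolism had 22 named members of 25 listed. All 22 were lower in pri (median 3.15-fold), and 20 of them with hybridisation control scaling. Mvd, the mevalonate diphosphate decarboxylase of isoprenoid synthesis, fell 7.89-fold, from 494, 582, 405, 449.5 and 414 to 53.1, 50.6, 72.4, 59.9 and 60.8 (limma adjusted p = 9.47e-09). Its genotypes lay far apart. Hmgs, the hydroxymethylglutaryl-CoA synthase at the start of the same pathway, fell 3.52-fold, from 1788 ± 172 to 512 ± 88.4 (SD, n = 5; limma adjusted p = 1.93e-07). Pdss2, a subunit of the enzyme that makes the isoprenoid tail of ubiquinone, fell 3.65-fold. Hmgs and Pdss2 were singled out after their values were seen. CG3842 fell 7.54-fold, from 283, 256, 181, 313 and 272 to 28.1, 29.1, 68.4, 23.6 and 34.8 (limma adjusted p = 1.10e-06), with pri replicate 3 above the other pri arrays. CG13082 fell 4.92-fold, from 403, 523, 543, 584 and 359.5 to 86.3, 138, 86.6, 67.1 and 120.5 (limma adjusted p = 1.53e-06). CG9514 was at least 3.83-fold lower, with 109.5, 141, 128, 128 and 109 in wt and 20.9, 22.6, 29.4, 38.5 and 26.1 in pri (limma adjusted p = 6.17e-07), and only pri replicate 4 was above 32. CG17562, the gene used here as a marker of oenocytes (cells that make cuticular lipids), was at least 3.59-fold lower, with means of 116 ± 22.1 (wt) and 29.5 ± 5.26 (pri; SD, n = 5). The smallest fall on the list was that of the lipase gene Lip4, at 2.18-fold, from 127, 258, 233, 171 and 131 to 73.2, 105, 81.5, 67.9 and 82.1 (limma adjusted p = 0.0007597). Its lowest wt arrays lay close to its highest pri array.

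Early secretory pathway genes, which bring proteins into and out of the endoplasmic reticulum, had 6 named members of 28, all lower in pri and all 6 with hybridisation control scaling (median 2.55-fold with the deposited scaling and 1.62-fold with the other). CHOp24, a cargo receptor of the p24 family, fell 3.69-fold, from 852, 847, 430.3, 1087 and 799 to 182, 218, 324, 143 and 215 (limma adjusted p = 4.39e-05). TRAM, a protein of the translocon, fell 2.73-fold, from 1685, 1659, 884, 2125 and 1510 to 518, 579, 767, 399 and 565 (limma adjusted p = 0.000125). For both genes wt replicate 3 was far below the other wt arrays, and pri replicate 3 was the highest of its genotype. SrpRalpha, of the receptor for the signal recognition particle, fell 2.56-fold, from 631, 614, 377, 779 and 736 to 176, 223, 304, 199 and 320.3 (limma adjusted p = 0.000242), and prtp fell 2.54-fold, from 1089, 1157, 972, 1327 and 1005 to 352, 466, 508, 385 and 479.6 (limma adjusted p = 4.40e-06). Sec23, a coat protein of vesicles that leave the endoplasmic reticulum, had the smallest fall, 2.38-fold, from 474, 490.1, 319.7, 682 and 512 to 159, 221, 259, 149 and 246 (limma adjusted p = 0.000356).

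Mitochondrial ribosomal proteins had 4 named members of 13, all lower in pri and 3 of them with hybridisation control scaling. Here mRpL45 fell 4.47-fold, from 286, 311, 233, 318 and 278 to 54.6, 53.5, 83.7, 61.9 and 68.3 (limma adjusted p = 2.03e-07), with a wide gap. The signals of mRpL51 were 444, 373, 241, 475 and 387 and 132, 157, 239, 96.5 and 130.1, 2.597-fold lower (limma adjusted p = 0.000395). Those of mRpL47 were 274, 275, 113, 313 and 237 and 88.1, 94.3, 166, 56.3 and 86.3, 2.48-fold lower (limma adjusted p = 0.00280). In mRpL47 the pri array of replicate 3 was above the wt array of the same number. The genotypes also overlapped for mRpL46, at 215, 149, 62.8, 223 and 207 and 54.03, 59.1, 102, 55.8 and 96.3, 2.21-fold lower (limma adjusted p = 0.0108), which lost its call with the other scaling. Of 8 genes of the CCT chaperonin, which folds actin and tubulin, 2 were named, and both were lower under either scaling. CCT4 went from 675, 677, 375, 837 and 652 to 136, 216, 315, 133 and 212 (3.24-fold lower, limma adjusted p = 0.000131), and CCT1 from 632, 663, 409.8, 861 and 639.6 to 196, 258, 336, 188 and 337 (2.45-fold lower, limma adjusted p = 0.000345).

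The list of transcription, splicing, ribosomal RNA and translation factors held 7 genes, and all 7 were named ones. All were lower in pri (median 2.55-fold), a direction fixed by the study's choice for the whole of this list. With hybridisation control scaling 5 of them were called lower, all but Fib and alpha-PheRS. One member, Prosalpha4, encodes a subunit of the proteasome core and does not do what the list's name says. It had the largest fall, 3.63-fold, from 307, 265, 128, 353 and 228 to 52.9, 68.6, 127, 40.9 and 70.7 (limma adjusted p = 0.000272), and its genotypes were separated by less than 1 unit of signal. Smn, needed to assemble the particles of the spliceosome, fell 2.76-fold, from 179, 209, 156, 254 and 159.5 to 54.98, 81.3, 109, 40.9 and 74.02 (limma adjusted p = 0.000253). The splicing factor gene snRNP-U1-C fell 2.65-fold and Nf-YA, a CCAAT-binding factor, 2.55-fold. Fib, an enzyme that methylates ribosomal RNA, had the smallest fall of all 133 genes, 1.97-fold, from 671, 561, 326, 964 and 677 to 247, 360.4, 408, 217 and 341 (limma adjusted p = 0.00712), and its genotypes overlapped.

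**Figure D2:**
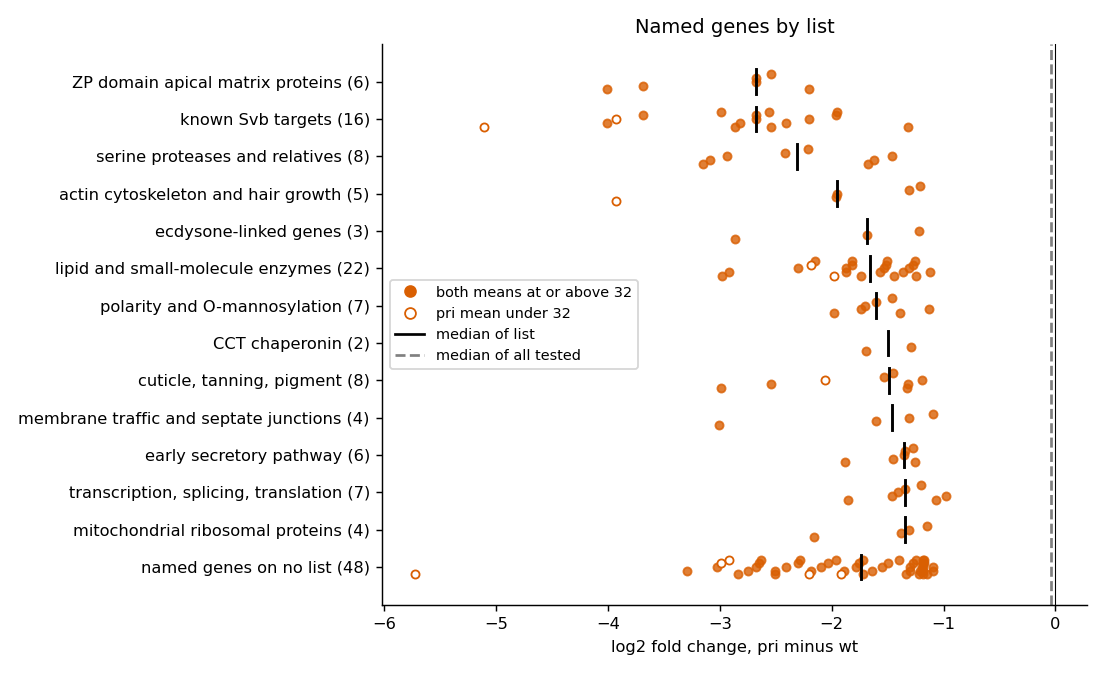
Log2 fold change (pri minus wt) of the 133 named genes by list, with the number of named members in brackets; a gene on several lists is drawn in each. Filled points have both means at or above 32, open points have a pri mean log2 under 5, black bars are list medians and the dashed line is the median of all 8502 tested probe sets (-0.04). Known Svb targets and ZP domain genes lie furthest to the left, at medians of 6.39-fold (5.86-fold and 6.39-fold with genes at their bounds).

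On no list were 48 named genes, with a median fall of 3.34-fold, and all 48 were lower in pri with the deposited scaling. Not all of them kept their call with hybridisation control scaling. CG11127, which fell least of the 48, lost it (limma adjusted p = 0.108), and the number that did was not counted for this group. CG15370 had 172, 196, 135, 145 and 209.6 in wt and 2.72, 1.36, 6.39, 2.98 and 4.67 in pri, at least 5.28-fold lower (limma adjusted p = 4.53e-08). CG5039 was at least 4.64-fold lower, with 126, 182, 122, 170.1 and 152 in wt and 17.9, 18.5, 21.7, 14.8 and 21.5 in pri (limma adjusted p = 2.81e-08). All pri values of both genes were under 32. CG13616 had 129, 103, 45.4, 187 and 83.1 in wt and 10.1, 14.1, 23.1, 8.61 and 13.5 in pri, a bound of 3.08-fold (limma adjusted p = 1.80e-05). CG6785 had 134, 106, 99.3, 139.6 and 80.3 and 18.4, 24.9, 24.1, 25.1 and 27.4, a bound of 3.43-fold (limma adjusted p = 7.43e-07). CG17211 had 135, 118, 81.1, 114 and 116 and 32.2, 24.9, 26.4, 36.5 and 28.5, a bound of 3.48-fold (limma adjusted p = 1.34e-06). Among these 3 genes CG17211 alone had pri values above 32, on replicates 1 and 4.

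The arrays of a genotype did not vary in the same way for all lists. In wt the array of replicate 3 was the lowest for 4 of 4 mitochondrial ribosomal genes, 5 of 6 secretory genes and 4 of 7 of the transcription and splicing list, and the array of replicate 4 was the highest for 4, 5 and 6 of them. For the 6 ZP domain genes this order was turned around, with replicate 4 lowest for 4 genes and replicate 3 highest for 3. Among the 16 known Svb targets replicate 4 was lowest for 9 and replicate 3 highest for 6. In pri the array of replicate 3 was the highest for 4 of 4 mitochondrial ribosomal, 5 of 6 secretory and 5 of 7 transcription and splicing genes, and the array of replicate 4 the lowest for 2, 4 and 6, while replicate 4 was the highest for 8 of the 16 targets and 4 of the 5 actin genes. Over all 133 genes wt replicate 3 was lowest for 49 and highest for 37, and wt replicate 4 was highest for 62 and lowest for 38. The median SD of the named genes on the log2 scale was 0.298 in wt and 0.323 in pri, against 0.274 and 0.264 for all tested probe sets. What differed between these arrays was not tested.

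The svb arrays took no part in the comparison. Their mean signals lay between those of wt and pri for all 133 named genes, an order that the study's choice of genes fixed in advance. Against wt, limma in the fit of all 15 arrays called 14 of the 133 lower in svb, beside 5.69% of all tested probe sets in either direction (341 lower, 143 higher). The mean signal of wus was 409 ± 31.6 in wt, 352 ± 101 in svb and 51.5 ± 10.04 in pri (SD, n = 5). That of Mvd was 469 ± 72.3, 389 ± 60.4 and 59.4 ± 8.48, and that of flz 542 ± 107, 527 ± 205 and 74.1 ± 28.3 in the same order. Of the 10 genes with the largest measured falls in pri, 5 passed in svb against wt, m (limma adjusted p = 0.00141), mey (0.00467), tpr (0.000198), dsx-c73A (0.000654) and CG14756 (0.0381). The other 5, CG42331, CG7173, wus, Mvd and flz, did not (limma adjusted p from 0.372 to 0.907), which does not show that they were at the wt level. By list, 8 of the 16 known Svb targets, 4 of the 6 ZP domain genes and 2 of the 8 on the protease list were called lower in svb. On the actin list 1 of 5 was, and on the cuticle list 1 of 8. Of the secretory, mitochondrial ribosomal, lipid, CCT, ecdysone, transcription, polarity and membrane traffic lists 0 were. The ZP domain genes are also on the target list, and the study had defined its targets by lower expression in svb mutants. A gene was counted here only against its own wt level, and a difference between lists was not tested.

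Called probe sets were counted by the size of their change. By fitted fold, 1435 were lower and 862 higher with a change under 2-fold, 628 and 917 changed 2-fold or more, 114 and 303 4-fold or more, 31 and 63 8-fold or more, and 13 and 22 16-fold or more. Many of the larger fitted folds rest on signals under the level of 32. With such means set at the level, the counts were 1533 lower and 1082 higher under 2-fold, 530 and 697 from 2-fold, 67 and 167 from 4-fold, 14 and 15 from 8-fold and 3 and 7 from 16-fold. Falls were thus the more frequent below 2-fold and rises from 2-fold and 4-fold by either count, while from 8-fold the counts by bound were nearly equal. With an offset of 16 added to the signals, which damps dim probe sets, they were 425 against 688 from 2-fold, 62 against 112 from 4-fold and 10 against 10 from 8-fold. With hybridisation control scaling rises outnumbered falls at every size, for instance 2435 against 199 under 2-fold by fitted fold. The probe sets called lower held 43.3% ± 1.95 of the summed signal of all tested probe sets in wt and 28.6% ± 2.25 in pri, and those called higher 10.7% ± 0.898 and 22.9% ± 0.866 (SD, n = 5), which follows from how they were chosen. By mean signal, 28.8% of the brightest 2126 tested probe sets were called lower and 17.7% higher, against 22.9% and 28.3% of the dimmest 2126.

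**Figure D3:**
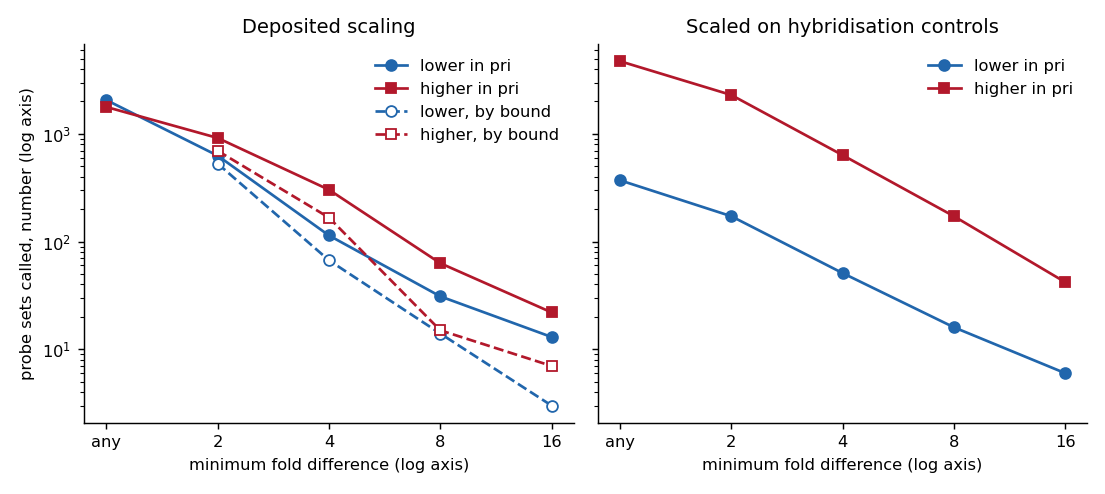
Number of probe sets called lower or higher in pri than in wt (log axis) by minimum fold difference (log axis), with the deposited scaling (left) and with scaling on the hybridisation controls (right). Solid lines are fitted folds and dashed lines (left) have means under 32 set at 32; on the left the lines cross between any change (2063 lower, 1779 higher) and 2-fold, and the dashed lines nearly meet at 8-fold (14 and 15).

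Some probe sets had a mean log2 signal under 5 in only one genotype. In pri only, 292 called probe sets were under that level, 71 of them at least 2-fold, 11 at least 4-fold and 4 at least 8-fold below their wt signal by the bound. In wt only there were 466, with 147, 36 and 7 at these bounds. The svb arrays were independent of this choice of probe sets. Of the 292, 239 (81.9%) were at or above the level in svb embryos, and of the 466, 69 (14.8%) were. In both classes most probe sets were thus on the same side of the level in svb as in wt. Most of them had bounds under 2-fold and so lay near the level in their brighter genotype. The same shares over all tested probe sets were not counted, so these values are a description of the chosen probe sets only. Among the 292 were 10 named genes, and among the 466 there were 0.

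The unnamed probe sets with the largest fitted changes had values as follows. Probe set 1625897_s_at had signals of 2560, 2012, 2013, 2324 and 2193 in wt and 2.19, 1.297, 7.22, 7.64 and 7.05 in pri, at least 69.1-fold lower (limma adjusted p = 4.77e-09). In svb it was at 1961, 1069, 3241, 2334 and 1739. It was therefore bright in every wt and svb array and dark in every pri array. Probe set 1639336_at had 77.5, 178, 113, 178 and 83.95 in wt, 1.26, 0.256, 0.712, 0.164 and 0.256 in pri and 0.2396, 0.383, 0.398, 0.318 and 2.16 in svb. Both mutants were dark here, and the fall in pri was at least 3.70-fold (limma adjusted p = 1.28e-07). In the other direction, 1634353_at had 4.404, 1.54, 1.71, 1.796 and 0.901 in wt and 1830, 1715, 1902, 1820 and 1886 in pri, at least 57.2-fold higher (limma adjusted p = 6.40e-11), with 22.8, 23.9, 27.5, 16 and 20.6 in svb. All svb values were under 32 but above all wt values. Probe set 1630238_at rose at least 38.7-fold (limma adjusted p = 2.39e-11), from 10.7, 6.39, 7.51, 11.3 and 7.66 to 1068, 1293, 1639, 1025 and 1260, and had 61.5, 76.7, 74.2, 96.95 and 66.4 in svb. Here the svb arrays lay between the other genotypes. Which genes these probe sets stand for was not analysed here, and no test was made of stock background or of embryo age.

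**Figure D4:**
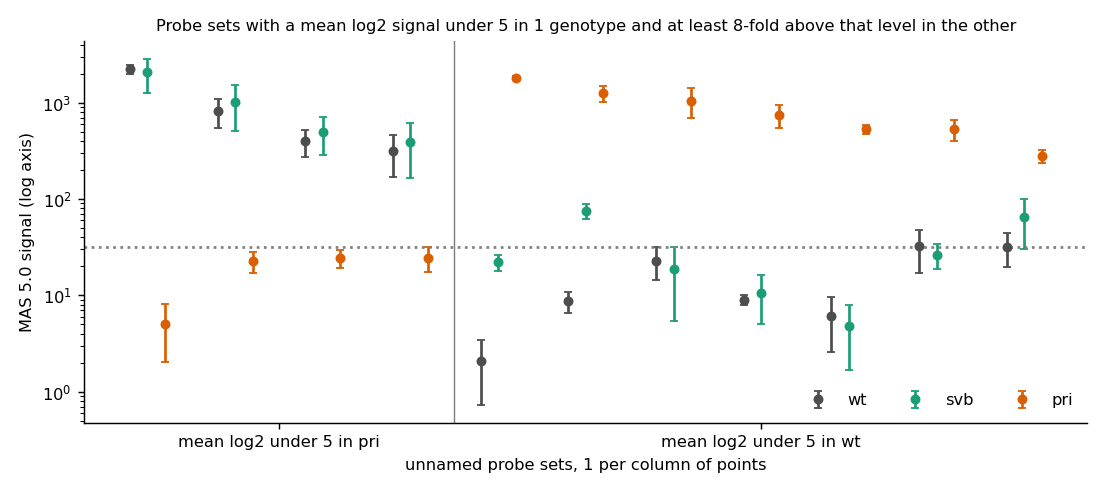
Mean MAS 5.0 signal (log axis) with SD (n = 5 arrays) in wt, svb and pri of the 11 unnamed probe sets whose mean log2 signal was under 5 (dotted line, signal 32) in pri (left, 4) or in wt (right, 7) and whose bound was at least 8-fold. All 4 on the left have svb means of at least 391.9, near those of wt, and on the right svb means are at most 75.1 while all pri means exceed 280.

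As to the arrays themselves, the log2 signals of tested probe sets correlated at 0.919 to 0.974 within wt, 0.938 to 0.981 within pri and 0.769 to 0.848 between them. The first principal component, 67.5% of the variance, placed the wt arrays at 32.2 to 51.4 and the pri arrays at -51.1 to -36.5. Of 7 array measures compared by an exact permutation test (two-sided, adjusted by Benjamini-Hochberg over the 7), 4 passed, each at p = 0.00794 (adjusted p = 0.0139), a limit set by groups of 5. Hybridisation controls are bacterial and phage transcripts added to each sample before hybridisation, with 9 probe sets here. Their geometric mean signal was 519 ± 57.4 (wt) and 331 ± 54.8 (pri; SD, n = 5), 1.58-fold lower, with all pri arrays below all wt arrays for 8 of the 9. On the svb arrays it ran from 296 to 652. The median signal of all probe sets was 14.03 ± 0.930 (wt) and 16.1 ± 0.882 (pri; SD, n = 5), and the share of probe sets at 32 or more was 42.2% ± 0.342 and 43.1% ± 0.534. The ratio of the 3' to the 5' probe set of Act5C, a measure of RNA quality, was 22.8 ± 8.27 (wt) and 8.43 ± 0.438 (pri; SD, n = 5), again without overlap, and 13.2 to 30.2 on the svb arrays. That of actin was 4.52 and 3.22 (exact permutation test adjusted p = 0.0648), of eIF-4a 8.002 and 5.901 (adjusted p = 0.0648) and of GAPDH 3.11 and 2.77 (adjusted p = 0.222), all with the lower mean in pri. The part that these differences between arrays have in the results above was not tested beyond the counts given with hybridisation control scaling.

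**Figure D5:**
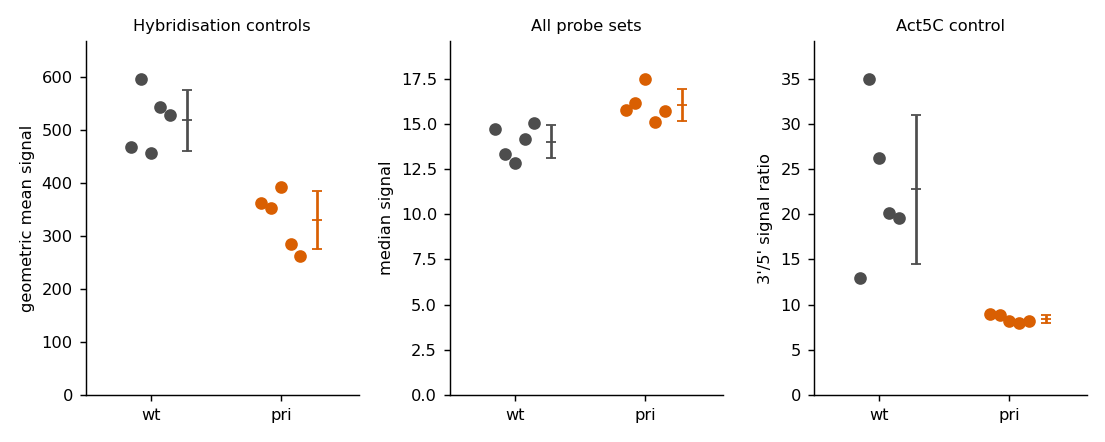
Geometric mean signal of 9 hybridisation control probe sets, median signal of all probe sets and ratio of the 3' to the 5' Act5C probe set on each of the 5 wt and 5 pri arrays (points), with mean and SD beside them; axes start at 0. Hybridisation controls and the Act5C ratio are lower on every pri array (263 to 392 against 456 to 596, and 7.95 to 8.92 against 12.9 to 34.9), and the median signal is higher on every pri array.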

How the data were processed

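The authors hybridised 1 array per sample and deposited MAS 5.0 signals, which are intensities on a linear scale, computed with Affymetrix Expression Console 1.1 and scaled so that every array had a trimmed mean of 100. This scaling takes the total signal to be equal in both genotypes. The authors' second table, of 149 rows, holds the intensities of selected genes on the same arrays. Each row was matched to a probe set by its values on all 15 arrays (relative tolerance 1e-05), which placed 145 rows on 1 probe set each and left 4 without any. Rows with several symbols, without a current symbol, with conflicting identifiers or for a probe set already named were left out, and 33 symbols were updated through RefSeq (Release 6 plus ISO1 MT). For the probe annotation a build is not given in the sources used here. No sequence is printed.

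Probe sets with a mean log2 signal of at least 5 in wt or pri were tested on log2 signals with limma 3.58.1 in R 4.3.3 (lmFit, and eBayes with a trend), two-sided, on the 5 wt and 5 pri arrays without covariates. P-values were adjusted by Benjamini-Hochberg over all 8502. Titles give replicate numbers, but same-numbered arrays did not deviate together, and no pairing was used. Where a group mean log2 was under 5, the fold is a bound against that level. Signals of different probe sets were not compared. Detection calls were not used, and per the labels no scan batch is named. The number of arrays limits the precision. On simulated data of the same size, 79 of 100 probe sets changed 2-fold and 97 of 100 changed 4-fold were recovered. There were 9 false calls among the probe sets left unchanged. In that simulation no other probe set changed, the noise was independent and the arrays had no scaling difference. In the data 45.2% of probe sets were called, so these rates do not carry over to them.

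Given in full are the 10 named genes with the largest falls above the level, genes at a bound, and from each list up to 4 members that fell furthest and the 1 that fell least, besides Hr3. The comparison, its named genes and the lists were chosen with earlier results of these data known. Scaling on hybridisation controls was added after the data were seen.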

Additional observations from a re-analysis of the deposited data

Results flagged for a closer look

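In 10 of 280 groups of 5 arrays, 1 array lay far from the other 4, its gap to the nearest being past Dixon's critical value for the range of the group. By chance about 1 in 20 groups would do so. Among wt arrays these were m in replicate 2 (a signal of 1808), CG7860 in replicate 3 (192.9), CG17562 in replicate 3 (154.8), CG1273 in replicate 4 (323.6), CG9356 in replicate 4 (161.2) and qua in replicate 4 (274.1). Among pri arrays they were CG3842 in replicate 3 (68.4), NimB3 in replicate 3 (220.5), St4 in replicate 4 (46.6) and CG5742 in replicate 2 (185.3). All 10 genes were called lower in pri with the deposited scaling in every fit that left out 1 array.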

How the results depend on the processing

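Counts of lower and higher probe sets (2063 and 1779) stayed within 1.5 times with quantile normalisation, median centring, an offset of 16, a filter at 6.5 or none, eBayes without a trend or robust, all 15 arrays in the fit and array weights, at 1560 to 2287 and 1223 to 2194. Leaving out 1 array at a time gave 1689 to 2117 and 1588 to 1826. Scaling on the hybridisation controls, added after the data were seen, gave 371 and 4734, because it moves every log2 fold change up by 0.66. The named genes called lower numbered 132 or 133 throughout, other than 115 with that scaling, where 17 lost their call (adjusted p from 0.0504 to 0.258). None of the 133 changed direction under any of these settings. Hr3 passed with array weights (adjusted p = 0.0143) and without wt replicate 3 or pri replicate 1.

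The replicate number as a block, which does not pair the samples (correlations of same-numbered arrays from -0.623 to 0.371), gave 1710 lower, 1579 higher and 132 named genes. The difference in the 3' to 5' ratio of actin (-1.30) ran from -1.71 to -0.908 with 1 array left out and passed in an exact permutation test without wt replicate 1 (-1.71, p = 0.00794). That of eIF-4a (-2.10) ran from -2.61 to -1.53 and passed without wt replicate 1 (-2.61, exact permutation p = 0.0159) or wt replicate 4 (-2.46, p = 0.0317).

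Dim probe sets limit the folds. The level of 32 stands in for background, and below it only bounds are given.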
